A study of Mus musculus with 6 samples.

Results

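The Hox genes encode homeodomain transcription factors and lie in 4 clusters in the mouse, HoxA on chromosome 6, HoxB on chromosome 11, HoxC on chromosome 15 and HoxD on chromosome 2. Runx1 binding was examined at 38 of them, 10 each in HoxA and HoxB and 9 each in HoxC and HoxD, out of 21887 protein-coding genes. The 38 were taken as a list of cluster genes fixed by name, and their positions came from the RefSeq table of build GRCm38.p6, the same assembly as mm10. A Runx1 peak belonged to a Hox gene if at least 1 bp of it fell inside the gene or no more than 10 kb outside it, and each peak was counted once per cluster. This gave 58 Hox peaks of 25052 in sham, 58 of 56316 at D14 and 11 of 15009 at D56.

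The peaks came from chromatin immunoprecipitation and sequencing (ChIP-seq) of Runx1, a DNA-binding protein of the RUNX family, in mouse lung fibroblasts. All mice carried Col1a2-CreERT2 and the mTmG reporter, in which Cre activity switches a cell of that collagen promoter's lineage from red to green fluorescence, and the green cells were used. They came from lungs with a sham injury and from lungs that had received bleomycin through the trachea, collected at day 14 (D14) or day 56 (D56). Bleomycin damages the lung epithelium, and fibrosis follows. Not given in the sources used here are the sham time point, the tamoxifen schedule and how many mice each library was made from. Each condition had 1 ChIP library and 1 input library, so without replicates neither a test nor a p-value could be given. Intervals are Wilson intervals at 95%, and they cover the counting error alone. They treat neighbouring peaks as independent, so whether an interval leaves out another value is not a test.

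Hox genes give cells their position along the body axis, and their order in a cluster follows their order of expression from head to tail. Genes of low number (paralogue groups 1 to 3) act in the hindbrain and pharynx, central genes (groups 4 to 8) in the neck and thorax, and posterior genes (groups 9 to 13) in the lumbar region, tail, limbs and urogenital tract. The proteins bind DNA with TALE homeodomain cofactors of the Pbx, Meis and Prep families. In the mouse lung Hoxa5 and Hoxb5 act in mesenchyme during airway branching, and adult fibroblasts keep a Hox code of their body site. Silent Hox genes are held by Polycomb proteins, and retinoic acid activates the low-numbered genes.

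The total list length differed between libraries, being 2.25-fold longer at D14 than in sham, while the sham list was 1.67-fold longer than the D56 list. ChIP tags numbered 48816721 in sham, 78744701 in D14 and 49669125 in D56, and input tags 39609538, 49312043 and 19949187 in the same order. Each pair had been scaled down to its input, and the D56 calls rested on the smallest one. Peaks lay at 7 of 8 fibroblast marker genes in each library, and at 3, 4 and 3 of 4 endothelial, 1, 3 and 0 of 4 epithelial and 1, 2 and 1 of 4 leukocyte marker genes, given in the order sham, D14, D56. Of all protein-coding genes, 60.3%, 73.3% and 53.7% had a peak in the same order. Binding at a marker gene is not expression, so these counts neither bear out nor contradict the fibroblast label, and the part of other cells in the Hox peaks was not tested.

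Sequence was read first at the promoters that the peak data bear on and at the microRNAs inside the clusters. RefSeq promoter windows (250 bases before and 50 after a start, build GRCm38.p6) were at hand for 22 of the 38 members, 24 windows in all. The 250 bases before the start are shown for the gene with the strongest promoter peak in HoxA (Hoxa5) and in HoxB (Hoxb4) and for Hoxd3, whose gene held the strongest HoxD peak. After the values were seen, Hoxa2 was added as the gene at the edge of the dense HoxA stretch, and Hoxd10 as the one with the first RUNX motif. All run 5′ to 3′ along the gene's own strand, and capitals mark a RUNX motif, TGTGGT or TGCGGT, on either strand.
Hoxa5, chr6:52204588-52204837, minus strand: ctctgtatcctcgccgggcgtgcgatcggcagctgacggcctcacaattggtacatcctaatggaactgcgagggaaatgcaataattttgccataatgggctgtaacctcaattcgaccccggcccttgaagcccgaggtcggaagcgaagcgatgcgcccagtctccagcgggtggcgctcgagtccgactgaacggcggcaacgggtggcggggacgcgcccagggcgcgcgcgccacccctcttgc
Hoxa2, chr6:52164832-52165081, minus strand: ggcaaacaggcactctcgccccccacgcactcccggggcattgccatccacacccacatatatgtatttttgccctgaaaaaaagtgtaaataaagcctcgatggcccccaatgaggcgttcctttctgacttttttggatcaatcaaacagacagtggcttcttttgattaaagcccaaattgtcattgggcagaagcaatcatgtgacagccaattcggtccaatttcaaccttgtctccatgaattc
Hoxb4, chr11:96318017-96318266, plus strand: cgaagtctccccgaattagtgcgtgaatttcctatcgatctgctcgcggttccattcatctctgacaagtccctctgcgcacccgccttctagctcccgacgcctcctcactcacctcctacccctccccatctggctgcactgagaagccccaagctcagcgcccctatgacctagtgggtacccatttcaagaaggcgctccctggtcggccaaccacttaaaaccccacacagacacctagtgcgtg
Hoxd3, chr2:74711743-74711992, plus strand: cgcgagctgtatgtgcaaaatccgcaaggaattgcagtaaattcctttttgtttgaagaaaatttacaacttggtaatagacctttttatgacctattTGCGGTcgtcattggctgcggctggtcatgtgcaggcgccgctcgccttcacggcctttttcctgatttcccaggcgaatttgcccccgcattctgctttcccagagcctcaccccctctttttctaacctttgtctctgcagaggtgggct
Hoxd10, chr2:74691641-74691890, plus strand: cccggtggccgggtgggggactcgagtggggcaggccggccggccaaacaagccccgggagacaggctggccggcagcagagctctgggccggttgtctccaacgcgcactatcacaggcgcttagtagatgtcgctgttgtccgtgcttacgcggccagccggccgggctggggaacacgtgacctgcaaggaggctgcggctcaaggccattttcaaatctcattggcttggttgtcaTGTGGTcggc
A RUNX motif occurred in 3 of the 24 member windows upstream of the start, TGTGGT in Hoxd10 and TGCGGT in Hoxd3 and Hoxd1, against 18.6% of 32817 RefSeq promoters of the same length. TGTGGT alone was found in 14% of all of them and TGCGGT alone in 5.09%. The 3 windows with a motif met no peak in any library. None of the upstream sequences with a peak held either motif, which says only that these letters are not in these 250 bases.

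Among the Hox promoters, Hoxa2, Hoxa5 and Hoxa6 were met by a peak both in sham and at D14. A peak met the promoter window of 4 members in sham (Hoxa2, Hoxa5, Hoxa6 and Hoxb4), of 5 at D14 (Hoxa2, Hoxa3, Hoxa5, Hoxa6 and Hoxa13) and of 1 at D56 (Hoxa5), among 24 windows. Over all 32817 promoters the shares were 31.7%, 40.2% and 27%. Hoxa5 alone had its window met in all 3 libraries, with fold enrichments of 15.3 (sham), 14.2 (D14) and 15 (D56). At Hoxb4 the region chr11:96318229-96318937 was called in all 3 libraries, with folds of 6.84 (sham), 7.81 (D14) and 5.68 (D56). Its sham peak was 709 bp wide and met the window at its edge, with the summit 374 bp past the start. The D14 and D56 peaks there, 252 and 150 bp wide, fell outside the window, so no loss is read from the window counts. The summit lay within 1 kb of a listed start for 6.9% of sham, 17.2% of D14 and 18.2% of D56 Hox peaks. Starts were listed for only 22 of the 38 members, so peaks at the other starts were missed and these shares are lower bounds. For instance, the sham peak at chr11:96303117-96303468, whose summit lay 201 bp from Hoxb5, was measured 14956 bp from the Hoxb4 start. No share over all peaks is given beside them.

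The clusters also hold microRNAs, small RNAs that silence messenger RNAs matching their seed (bases 2 to 8, in capitals). The mature 5p strands from RefSeq are shown because the HoxB and HoxD copies of miR-10, and the HoxA, HoxB and HoxC copies of miR-196, have the same seed in each family.
miR-10a-5p: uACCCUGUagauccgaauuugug
miR-10b-5p: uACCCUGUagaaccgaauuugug
miR-196a-5p: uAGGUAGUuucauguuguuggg
miR-196b-5p: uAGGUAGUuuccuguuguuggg
Mir10a in HoxB had 7 sham, 7 D14 and 1 D56 peaks within 10 kb, the nearest sham peak lying 955 bp from the hairpin with a fold of 6.84. Mir10b in HoxD, with the same seed, had 0, 1 and 0. Mir196b in HoxA had 1, 1 and 0, Mir196a-1 in HoxB 1, 3 and 0 and Mir196a-2 in HoxC 0, 1 and 0. Mir615 in HoxC had no peak within 10 kb in any library. Copies with the same seed thus differed in peak number between clusters.

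Runx1 peaks were crowded into HoxA and HoxB, while HoxC and HoxD held few. HoxA (118 kb of windows) held 29 sham, 28 D14 and 7 D56 peaks. HoxB (139 kb of windows) held 29, 24 and 4, and all sets of 3 values without a library name are in the order sham, D14, D56. HoxC (136 kb) held 0, 4 and 0, and HoxD (117 kb) 0, 2 and 0. Thus every Hox peak of the sham and D56 lists lay in HoxA or HoxB.

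**Figure D1:**
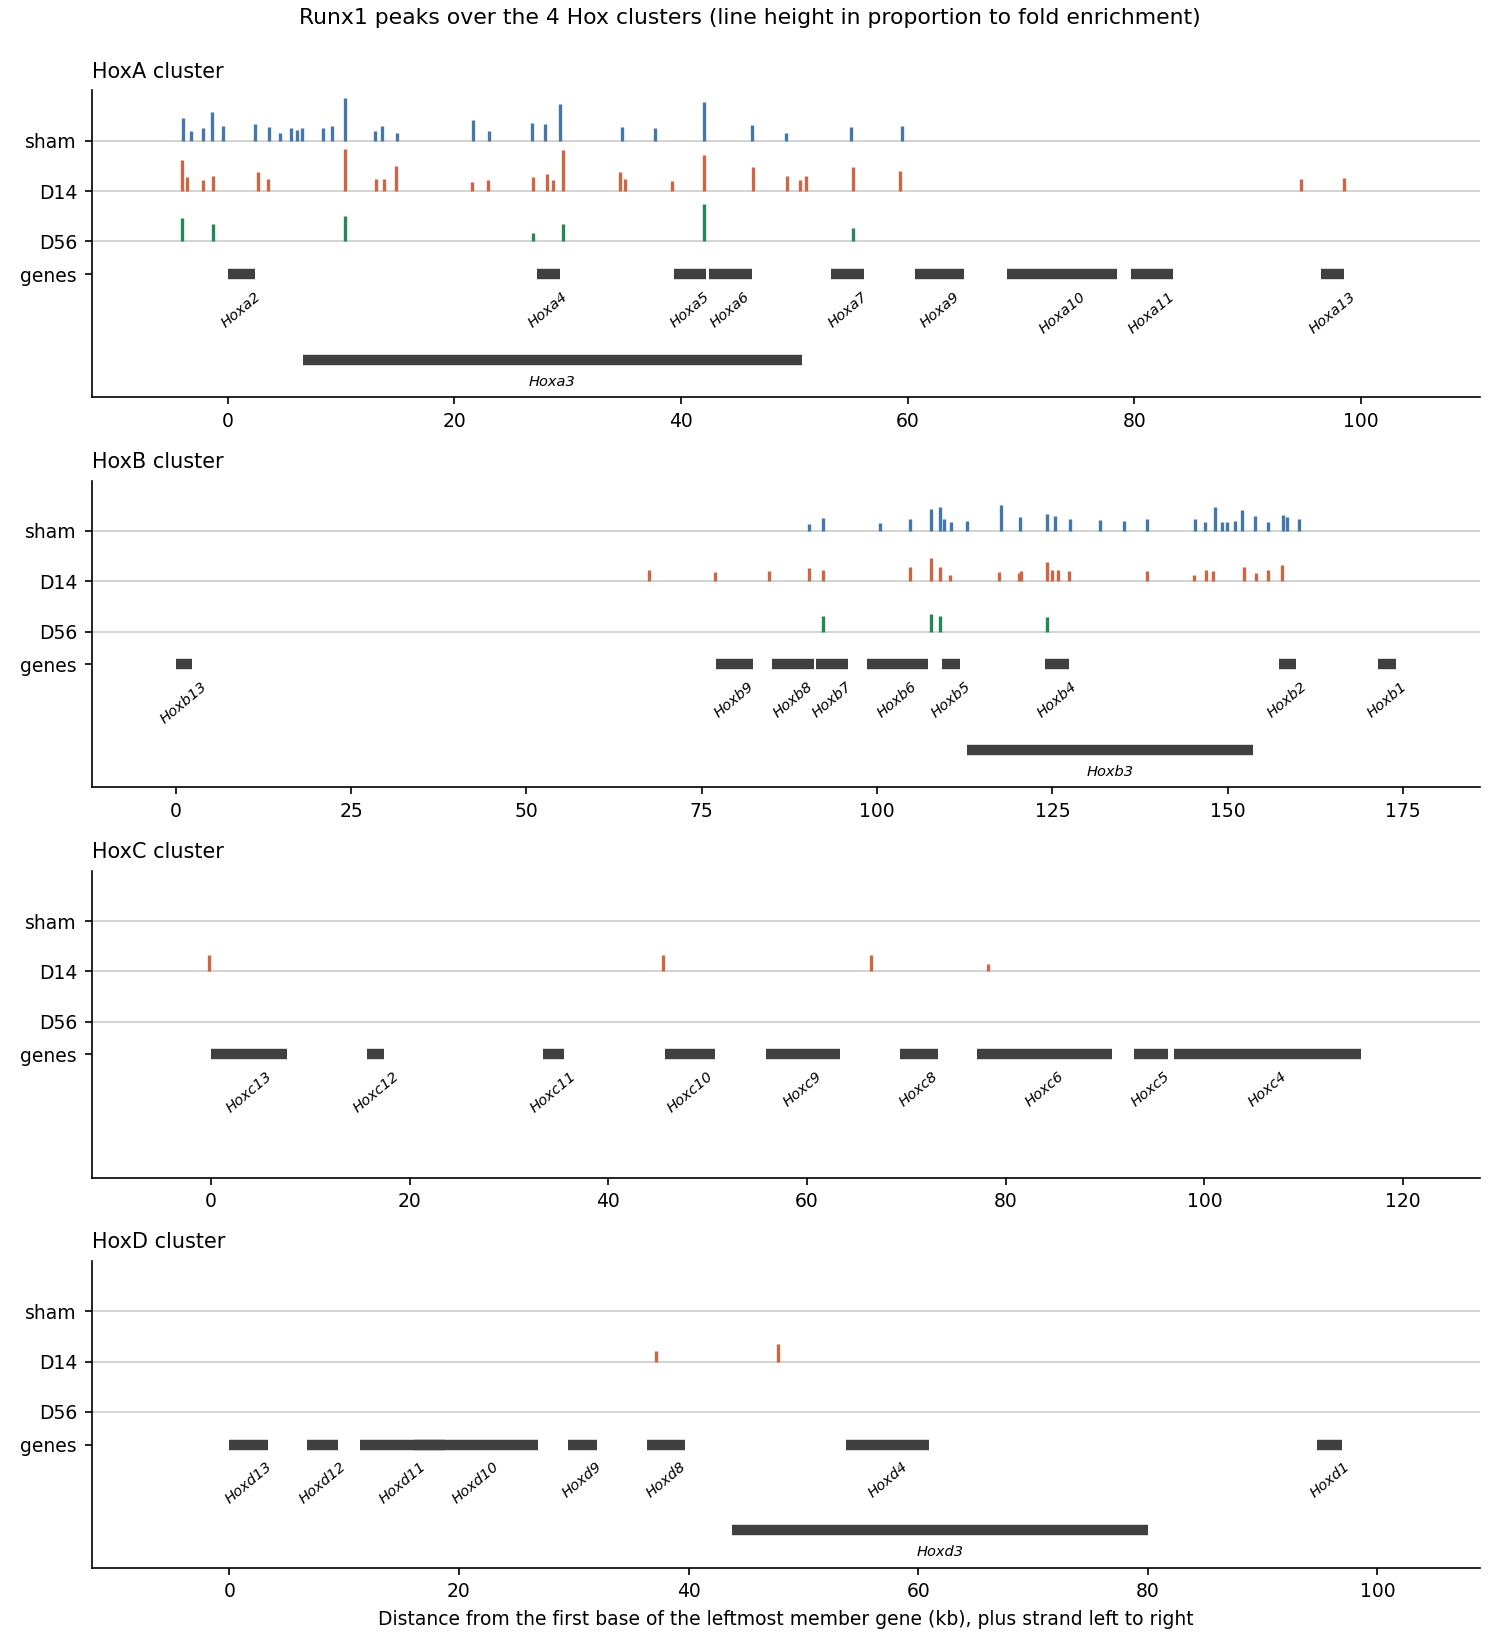
Runx1 peaks over the 4 Hox clusters, by distance in kb from the first base of the leftmost member gene. Each vertical line is a peak, its height in proportion to the authors' fold enrichment (the tallest is 17), with sham, D14 and D56 tracks above the genes, and heights are not on a common scale between tracks. Most peaks sit between Hoxa2 and Hoxa7 and between Hoxb2 and Hoxb9, while HoxC and HoxD carry 4 and 2 peaks at D14 alone.

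Per 100 kb of window, HoxA had 24.5 sham, 23.6 D14 and 5.91 D56 peaks, and HoxB had 20.8, 17.2 and 2.87. Over the windows of all protein-coding genes, made the same way, the densities were 1.55, 3.23 and 0.989. The 200 kb on each side of the HoxA windows held 1.25, 2.5 and 0.5 peaks per 100 kb, and those of HoxB 1.25, 3.5 and 0.75, so the crowding ended with the clusters. HoxC at D14, with 2.95 per 100 kb, and HoxD, with 1.71, stood close to their own flanks, which had 4 and 1.5. In sham and at D56 HoxC and HoxD had none, against 1.75 and 1.25 (HoxC) and 0.5 and 0.25 (HoxD) in the flanks.

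**Figure D2:**
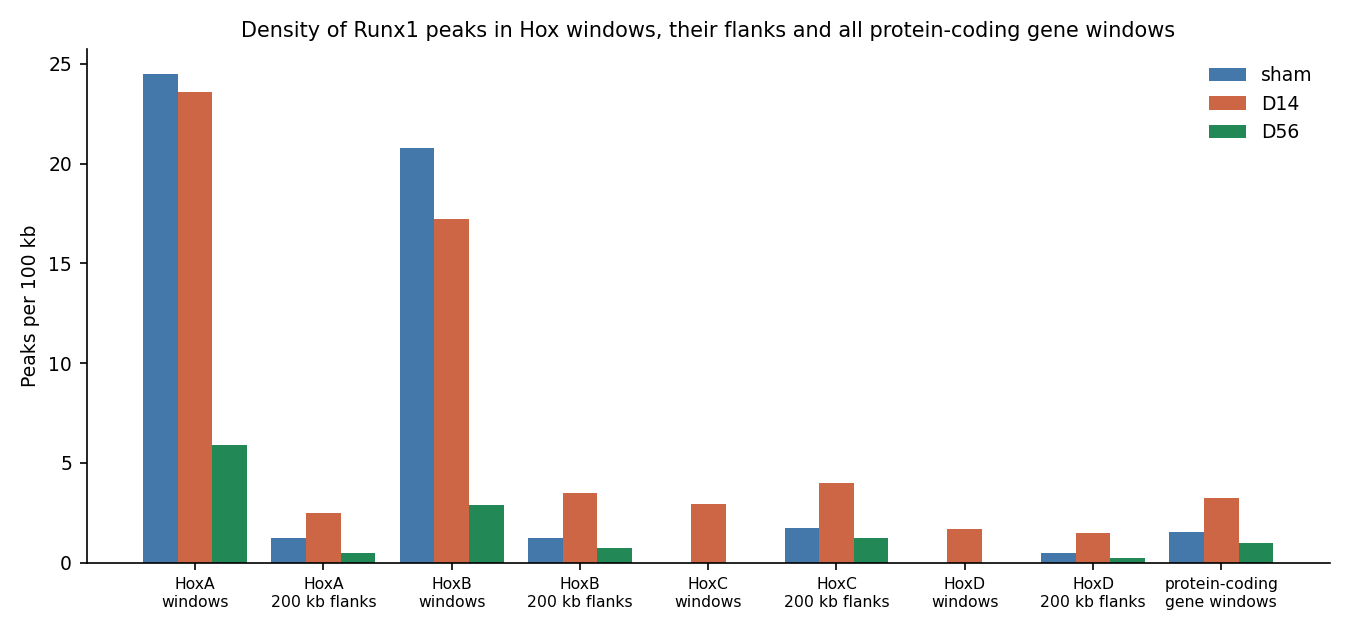
Runx1 peaks per 100 kb in the joined windows of each Hox cluster, in the 200 kb on each side and in the windows of all protein-coding genes, with bars for sham, D14 and D56. HoxA and HoxB exceed 17 peaks per 100 kb in sham and at D14, and HoxC and HoxD stay under 3.

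Unlike the whole list, the Hox set was no larger at D14 than in sham. It numbered 58 peaks at D14 and 58 in sham, a ratio of 1, where the full lists differed 2.25-fold. At D56 both the Hox set and the full list were smaller than in sham. Hox peaks were 0.232% of the sham list (interval 0.179 to 0.299), 0.103% of the D14 list (0.0797 to 0.133) and 0.0733% of the D56 list (0.0409 to 0.131). The sham interval lay above that of D14, which is no test, and such a share also depends on the length of its list. The sham and D14 pileups were also thinned by the ratio of D56 input tags to their own, which can only drop called peaks. The Hox counts were then 47 in sham, 45 in D14 and 11 in D56. With each list held to its 15009 strongest peaks they were 32, 8 and 11. In those equal lists HoxB had 14 sham, 0 D14 and 4 D56 peaks.

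The number of members with a peak was 16 of 38 in sham, 27 at D14 and 14 at D56. As shares these are 42.1%, 71.1% and 36.8%, against 60.3%, 73.3% and 53.7% of all protein-coding genes, so the D14 share was close to the background. These shares are not matched on length, and Hox genes are short, with a median of 3.72 kb, against 17.2 kb. In the gene body alone, 13, 17 and 6 members had a peak, against 52%, 65.4% and 44.6% of all. Of the 11 members with a D14 peak and no sham peak, 6 lay in HoxC, 4 in HoxD and 1, Hoxa13, in HoxA. The share of all protein-coding genes with a D14 peak and no sham peak was not computed. No result about the members is therefore read from this count. HoxA had a peak at 8, 9 and 7 of 10 members and HoxB at 8, 8 and 7 of 10. The 11 members without a peak in any library were Hoxa11, Hoxb1, Hoxb13, Hoxc4, Hoxc5, Hoxc12, Hoxd1, Hoxd10, Hoxd11, Hoxd12 and Hoxd13. For these too the share over all protein-coding genes was not computed.

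Among the anterior genes, Hoxa3, which patterns the third pharyngeal arch, thymus and parathyroid, had 28 sham, 24 D14 and 6 D56 peaks. No protein-coding gene had more peaks than Hoxa3 in sham, and its rank by peak number was 47 at D14 and 49 at D56. With each list held to its 15009 strongest peaks it had 17, 7 and 6 peaks and ranked 2, 11 and 49. RefSeq gives it a 44 kb span that takes in Hoxa4, Hoxa5 and Hoxa6, so it shares peaks with them. Hoxb3, a gene of 40.8 kb around Hoxb4, had 26, 19 and 3 peaks and ranked 5, 110 and 634. In the lists of equal length it had 13, 0 and 3 peaks and ranked 4 in sham and 634 at D56. Hoxa2, a regulator of the second pharyngeal arch and hindbrain only 2.42 kb long, had 14, 7 and 3, and Hoxb2, also a hindbrain gene, 10, 5 and 0. Hoxb1, next in line at that end of HoxB, had none. Hoxd3 had 0, 2 and 0, and Hoxd1 none.

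Every central gene of HoxA and HoxB had a peak in each library. Hoxa4 had 7 sham, 9 D14 and 2 D56 peaks, and Hoxa5 and Hoxa6 each had 6, 9 and 2. Hoxa7 had 4, 6 and 1. Each of these central HoxA genes had more peaks at D14 than in sham, as did 51.4% of all protein-coding genes. They share peaks with their neighbours, so they are not separate cases. Of the central HoxB genes only Hoxb8 had that order. In the lists of equal length the order in HoxA was lost or turned round, with 1 peak at D14 and 5 in sham for Hoxa4, 3 and 4 for Hoxa5 and for Hoxa6, and 3 in both for Hoxa7. Hoxb4, known for its part in blood stem cell expansion, had 7, 7 and 1, Hoxb5 9, 7 and 2, and Hoxb6 10, 6 and 3. Hoxb7 had 4, 4 and 1 and Hoxb8 3, 4 and 1. In HoxC and HoxD, Hoxc8 and Hoxd8 had 2 peaks each and Hoxc6 and Hoxd4 1 each, all at D14.

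The posterior genes had few peaks, most of them in the flank next to a central gene. Hoxa9, a gene of blood progenitors and leukaemia, had 2, 3 and 1, Hoxa10, which acts in the uterus and limb, 1, 1 and 0, and Hoxb9 2, 5 and 1. Hoxa13, needed for digits and the genital tubercle, had 2 peaks at D14 alone. Hoxc9, Hoxc10, Hoxc11, Hoxc13, a hair follicle gene, and Hoxd9 had 1 each, also at D14 alone. Hoxa13 was the only posterior member whose gene body met a peak in any library, at D14 with a fold of 5.25.

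**Figure D3:**
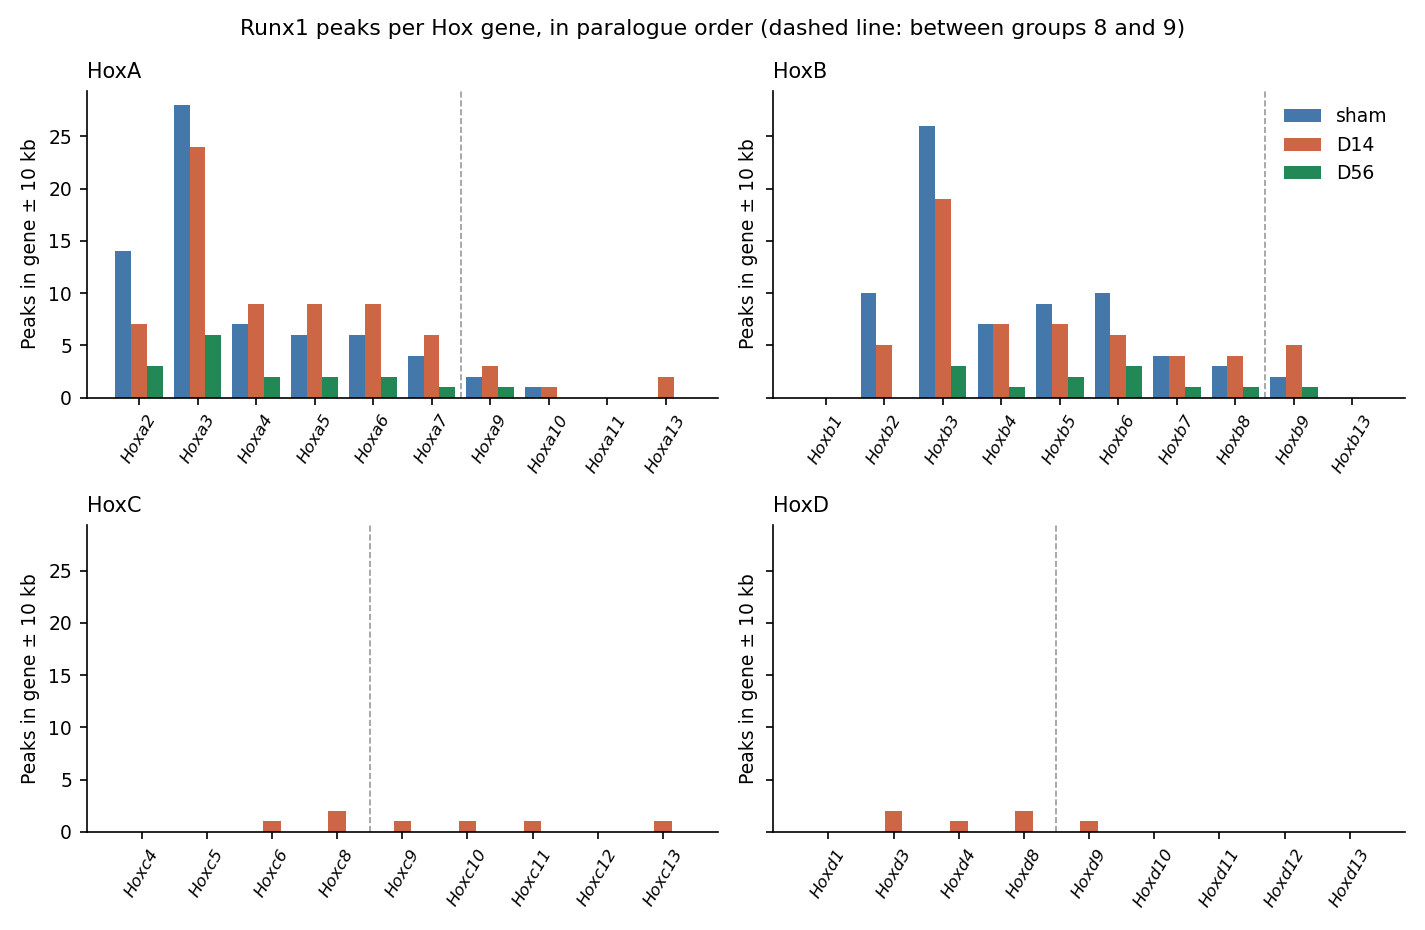
Runx1 peaks in each Hox gene and the 10 kb on either side, in paralogue order within each cluster, with bars for sham, D14 and D56 and a dashed line between groups 8 and 9. Hoxa3 (28, 24 and 6) and Hoxb3 (26, 19 and 3) stand highest, and in sham the HoxA and HoxB genes right of the dashed line have fewer peaks than every gene left of it apart from Hoxb1; neighbouring genes share peaks.

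Summed by class, the 22 genes of groups 1 to 8 met 58 sham, 53 D14 and 11 D56 peaks, or 17.5, 16 and 3.31 per 100 kb. The 16 genes of groups 9 to 13 met 4, 14 and 2, or 1.66, 5.82 and 0.831 per 100 kb. Over the windows of all protein-coding genes the densities were 1.55, 3.23 and 0.989. The posterior class was thus close to that background in sham and at D56 and above it at D14. All 4 posterior peaks of sham and both of D56 also lay within 10 kb of a gene of groups 1 to 8, as did 9 of the 14 at D14. The 5 peaks that met posterior windows alone were all called at D14. In sham, groups 1 to 8 had 38.1 and groups 9 to 13 had 3.46 peaks per 100 kb within HoxA, and 26.6 and 4.21 within HoxB, so the classes differed in the same direction within each of these clusters. HoxC and HoxD, with D14 peaks alone, had 1 to 3 peaks in each class: groups 1 to 8 had 3.02 and groups 9 to 13 had 3.6 per 100 kb in HoxC, and 2.48 and 1.92 in HoxD. With gene bodies alone the posterior count was 0, 1 and 0, and with 2.5 kb on either side it was 1, 7 and 0.

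The peaks left long stretches of the clusters empty. Over all protein-coding gene windows the densities were only 1.55, 3.23 and 0.989 peaks per 100 kb. How long empty stretches are elsewhere in the genome was not tested, so these are not read as a lack of peaks. In HoxA no peak lay in a 38.9 kb stretch over Hoxa9, Hoxa10, Hoxa11 and Hoxa13 in sham. The corresponding stretch was 35.1 kb at D14, broken by the peaks at Hoxa13, and 43.2 kb at D56. In HoxB the longest empty stretch ran from Hoxb13 towards Hoxb9 for 66 kb in sham and at D14, and for 92.2 kb at D56, when it took in Hoxb9 and Hoxb8 too. A peak near Mir196a-1 that ends this stretch lies more than 10 kb from any member and is not among the Hox peaks.

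At 6 of 38 members (Hoxa2, Hoxa3, Hoxb2, Hoxb3, Hoxb5 and Hoxb6) there were fewer peaks at D14 than in sham. Over all protein-coding genes 2.39% (523 of 21887) had fewer. The 6 share peaks with their neighbours, so they are not 6 separate cases. In the other members the number was higher at D14 in 18 (47.4% of the 38, against 51.4% of all protein-coding genes), equal in 3 (Hoxa10, Hoxb4 and Hoxb7) and 0 in both libraries in 11. Hoxa2 and Hoxb3, each with 7 peaks fewer at D14, shared rank 10 genome-wide with other genes, and 16 genes in all had at least 7 fewer.

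Overlapping Hox peaks of the libraries were joined into 73 regions. All 3 lists held 11 of them, while 28 were called at D14 and in sham, 19 in sham alone, 15 at D14 alone and none at D56 without sham. The sham-alone regions, 9 in HoxA and 10 in HoxB, were of modest rank, with a median fold percentile of 37.3 and a highest of 65.2 within the sham list. The D14-alone regions, 6 in HoxA, 3 in HoxB, 4 in HoxC and 2 in HoxD, had a median percentile of 32.7 and a highest of 63. A percentile is used here because the authors' folds were computed for each library apart.

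Of the 58 D14 Hox peaks, 15 (25.9%, interval 16.3 to 38.4) had no overlapping sham peak, against 58.9% of all D14 peaks. In the other direction, 39 of the 58 sham Hox peaks (67.2%, 54.4 to 77.9) met a D14 peak, against 91.7% of all sham peaks. Both intervals leave out the whole-list value, which is no test because neighbouring peaks of a cluster are not independent. The first difference did not hold when each peak had to cover 50% of the other, where 67.2% of the Hox peaks and 67.2% of all peaks at D14 had no sham partner. The second did, with 32.8% of the Hox peaks and 73.8% of all sham peaks found at D14. At D56, 12 of the 58 D14 Hox peaks were found again (20.7%, 12.3 to 32.8), close to the 25.6% of all D14 peaks. Among those that also had a sham overlap the share was 27.9% (12 of 43), against 60.2% in the whole list, and among those without one it was 0 of 15, with an upper bound of 20.4%, against 1.45%. Of the 58 sham Hox peaks, 11 were found at D56 (19%, 10.9 to 30.9), against 55.7% of all sham peaks. All 11 D56 Hox peaks met a sham peak (74.1 to 100), against 96.4% of all D56 peaks, and all 11 met a D14 peak.

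**Figure D4:**
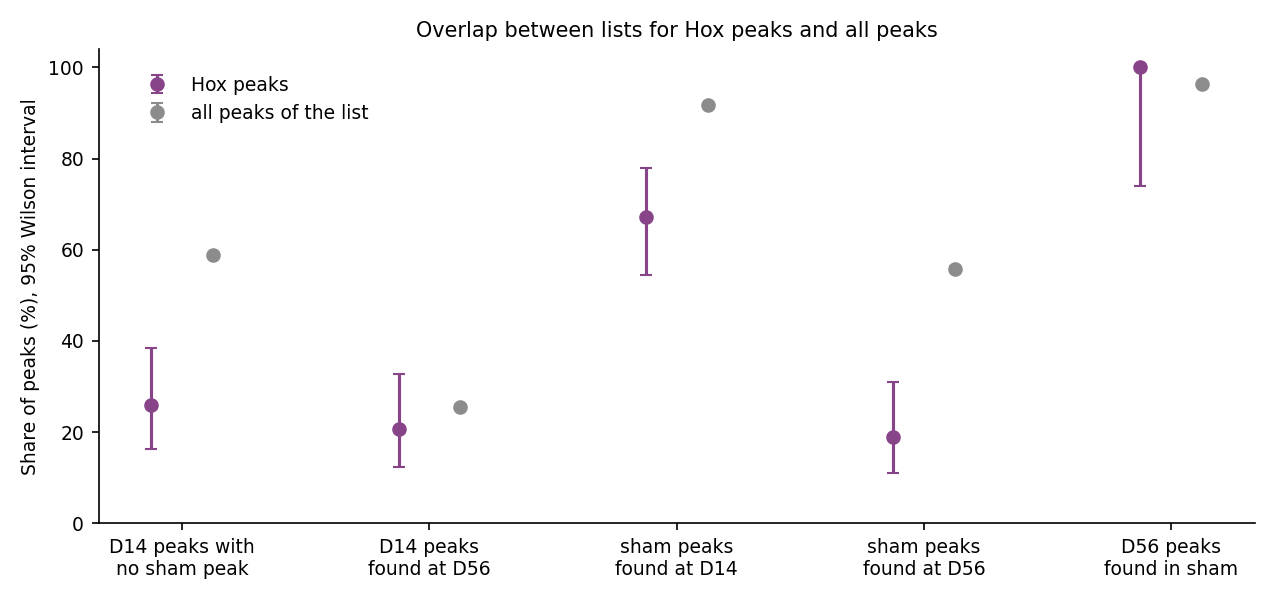
Share of peaks of one list that overlap a peak of another by 1 bp or more, for Hox peaks (purple) and all peaks of the list (grey), in percent with 95% Wilson intervals. Hox peaks without a sham overlap are 25.9% of those at D14, against 58.9% of all, and 67.2% of sham Hox peaks are found at D14, against 91.7% of all.

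The strongest Hox peak lay inside Hoxa3 at chr6:52172394-52173168 in sham, with a fold of 17 and a percentile of 99.7 within that list. It was also the strongest Hox peak at D14 (fold 16.9, percentile 92), and at D56 it had a fold of 9.97 (percentile 78.6). The next in sham, chr6:52204120-52204837, covered the start of Hoxa5, the gene with a role in lung mesenchyme. Its folds were 15.3 in sham (percentile 99.4), 14.2 at D14 (88.3) and 15 at D56 (95.5), and it was the strongest Hox peak at D56. A peak at chr6:52191408-52192148, at the edge of Hoxa4 and inside Hoxa3, had folds of 14.7 (percentile 99.1), 16.2 (91.1) and 6.78 (50.1) in sham, D14 and D56.

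Beyond Hoxa2, in the 10 kb next to it, chr6:52160555-52161521 had folds of 11.5 in sham, 6.19 at D14 and 6.78 at D56. A second one there, chr6:52157922-52159029, had 9.01, 12.4 and 9.22. Both lay nearer to Hoxa2 than to any other member. One peak of Hoxa3, chr6:52176950-52177574 at D14, was the next strongest at D14, with a fold of 9.98 (percentile 78.6), against 3.07 (percentile 4.93) in sham, and it was not called at D56. At Hoxa7 the folds were 5.47, 9.72 and 5.15.

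The strongest HoxB peak of sham, chr11:96311223-96312641 in Hoxb3, was 1419 bp wide with a fold of 10.2 (percentile 92.8). At D14 the peak there was 214 bp wide with a fold of 3.79 (percentile 14.2), and none was called at D56. A second wide one in Hoxb3, chr11:96341984-96342955, had a fold of 4.03 at D14 (percentile 19.2) and of 9.37 in sham (percentile 90). Between Hoxb6 and Hoxb5, the region at chr11:96301710-96302275 had folds of 8.61 (sham), 9.31 (D14) and 6.88 (D56). Its D14 and D56 folds were the highest of HoxB in their lists. In HoxC the strongest D14 peak was at chr15:102987521-102987714, between Hoxc9 and Hoxc8, with a fold of 6.53, and in HoxD at chr2:74715883-74716106 in Hoxd3, with 6.95. No HoxC or HoxD peak passed percentile 63 of the D14 list.

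The regions shared by D14 and sham were narrower and lower in rank at D14. Of the 39, 35 were narrower at D14, with a median width of 313 bp at D14 and 470 bp in sham. The fold percentile was lower at D14 in 27 and higher in 12, with medians of 46.8 at D14 and 63.2 in sham. The whole lists went the other way. Among peaks that paired 1 to 1 between the lists, 88.6% of 35 Hox pairs and 28.7% of 20970 pairs overall were narrower at D14, and 68.6% of the Hox pairs and 25.1% overall had a lower percentile. Summits of the Hox pairs lay a median of 37 bp apart, against 33 bp overall. The fragment length in the file headers was 132 bp at D14 and 166 bp in sham, and its part in the widths was not tested.

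The Hox peaks covered 28.6 kb in sham, 16.1 kb at D14 and 3.79 kb at D56. In HoxB the covered length was 13.9, 5.19 and 0.771 kb, and in HoxA 14.7, 9.6 and 3.02 kb. Counts in sham and at D14 were thus alike while the covered length at D14 was lower. The median fold percentile of all Hox peaks was 50.5 in sham, 37.9 at D14 and 50.1 at D56, so as a set they were not among the strong peaks of their lists, and 6, 2 and 1 of them fell in the top decile. The 11 regions called in all libraries had medians of 88.5, 76.1 and 50.1, against 70.1, 86.8 and 53.5 for the 13733 regions that all 3 whole lists share. A percentile depends on the length of its list, so no change in binding is read from these medians.

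**Figure D5:**
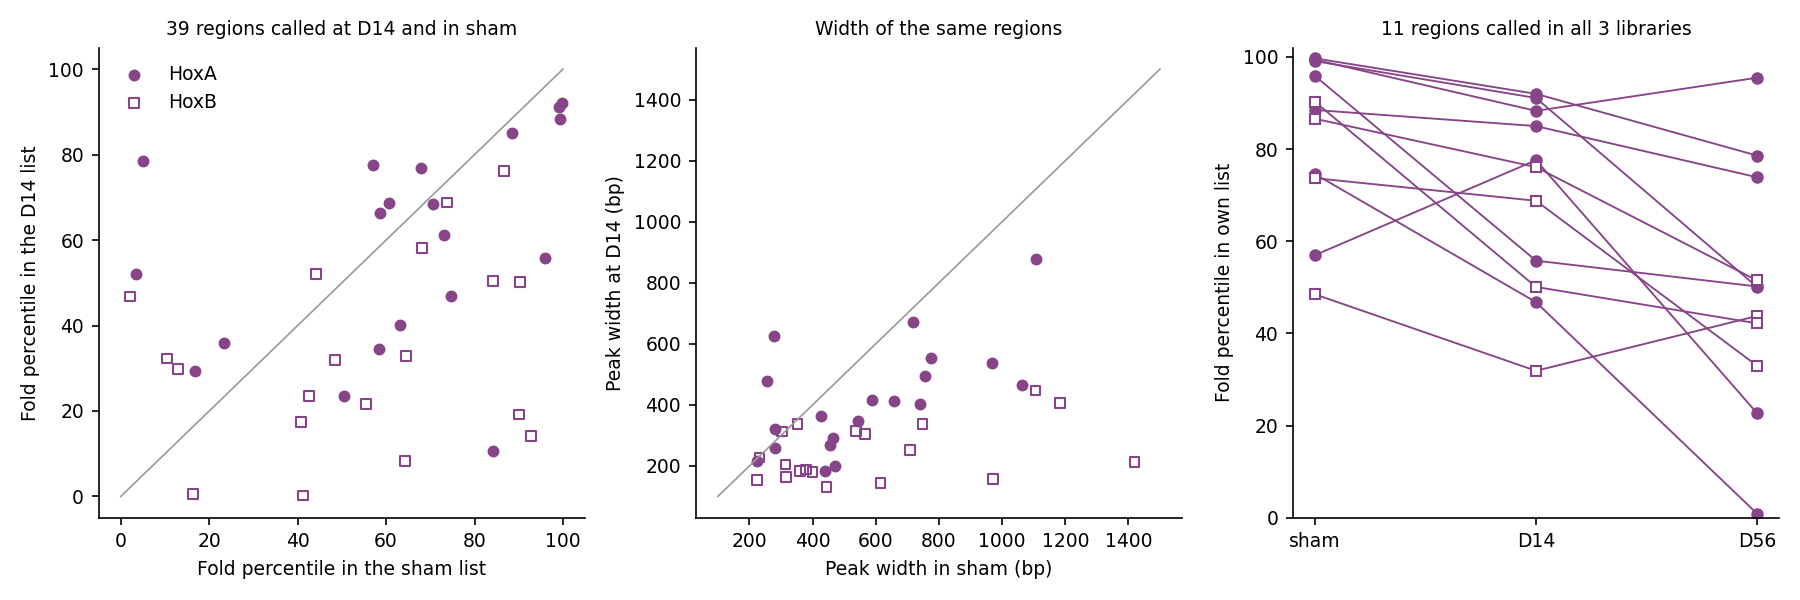
Left, fold percentile in the D14 list against that in the sham list for the 39 Hox regions called in both, with the line of equality. Middle, peak width in bp at D14 against sham for the same regions, 35 of them below the line. Right, the fold percentile of the 11 regions called in all 3 libraries, with filled circles for HoxA and open squares for HoxB, medians 88.5, 76.1 and 50.1, against 70.1, 86.8 and 53.5 for all regions that the whole lists share.

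The genes that act with the Hox proteins are read here against all protein-coding genes, of which 51.4% had more peaks at D14 than in sham and 60.3%, 73.3% and 53.7% had a peak in sham, D14 and D56. These counts are not matched on gene length, whose part in them was not tested. Of 11 TALE cofactor genes, 10 had a sham peak, 11 a D14 peak and 9 a D56 peak, and 10 had more peaks at D14 than in sham and none fewer. Pknox1, which encodes Prep1, had 1, 4 and 1 peaks, with a highest D14 fold of 39.8. Meis1 had 11, 14 and 3. Of 24 Polycomb and Trithorax genes, 23, 24 and 23 had a peak, 18 had more at D14 than in sham and 3 fewer. Ezh2, the Polycomb methyltransferase and one of those with fewer, had 2, 1 and 2 peaks, with a highest D14 fold of 34.4.

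Retinoic acid genes had a peak in 12 of 18 in sham, 16 in D14 and 13 in D56. At D14, 14 of them had more peaks than in sham, against the 51.4% of all genes, and 1 had fewer, Rxrb, with 3 at D14 and 4 in sham. Its neighbour Ring1, among the Polycomb genes with fewer, had the same peak numbers and highest folds, so they are not separate cases. The receptor genes Rarg and Rarb had 4, 7 and 4 peaks and 3, 13 and 2 peaks in sham, D14 and D56. Of 20 other homeobox and T-box genes of mesenchyme, 14, 18 and 8 had a peak and 15 had more at D14, against the same 51.4%. Tbx2 was the 1 member of that list with fewer at D14, with 13 in sham, 11 in D14 and 6 in D56, and Tbx5, a lung and limb regulator, had 4, 11 and 0. The ParaHox genes, sister genes of the Hox clusters, had a peak in 1, 2 and 1 of 6, and 2 of the 6 had more at D14.

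Among genes on either side of the clusters, not all of them adjacent to a cluster, some peaks exceeded every Hox peak in fold at D14. Of 16 flanking genes, 9 had a peak in sham, 14 at D14 and 7 at D56, 11 had more at D14 than in sham, against 51.4% of all genes, and none had fewer. The 14 at D14, the 9 in sham and the 7 at D56 stood against 73.3%, 60.3% and 53.7% of all genes. Lnpk, beyond Evx2 from HoxD, reached a D14 fold of 35.9 and Hibadh, beyond Evx1 from HoxA, 35.4, against 16.9 for the strongest Hox peak. Evx1 and Evx2, homeobox genes at the posterior ends of HoxA and HoxD, had no peak in any library. Of 12 long RNA genes of the clusters, 6, 10 and 5 had a peak, with more at D14 than in sham in 6 and fewer in 4. Hotairm1, a long RNA at the anterior end of HoxA, had 13 in sham, 6 at D14 and 2 at D56, while Hottip, at the posterior end, had 2 at D14 alone and Hotair, in HoxC, none. Haglr in HoxD also had none.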

How the data were processed

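Runx1 ChIP-seq was done in 3 libraries (sham, D14 and D56), each with an input, and groups came from the sample titles. Per the file headers, MACS 2.0.10.20120913 was run by the authors, setting each ChIP library against its input, at a q-value cutoff of 0.01. The deposited lists give a pileup signal, −log10 p-values, −log10 q-values and a fold enrichment ratio for each peak. The submitters' processing notes name mm10, MACS2, SAMtools and BWA. Since pileups and folds were scaled per library, they served to rank peaks within a list.

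Mitochondrial peaks were left out. Gene, promoter and microRNA positions were RefSeq's (GRCm38.p6); all 38 members matched, and the table gave no exons. Python 3.11.15 with pandas 2.3.3 was used. No genome sequence was used here, so peak sequences were not read. Members and gene lists were chosen with earlier results of these data known. Genes were named by a rule: all members, the 5 strongest Hox peaks per library and the strongest per cluster, and from other lists up to 4 of highest D14 fold. The second wide Hoxb3 peak, the Hoxa7 folds, Meis1, Rarb, Rxrb, Tbx2, Tbx5, Hottip, Hotair, Haglr, Evx1 and Evx2 were named after their values were seen. So was Ring1. Overlap and counting steps were tested on simulated data. Alternatives were stricter q and fold thresholds, equal list lengths, thinned pileups, merged peaks, other distances, nearest-gene assignment and other overlap rules.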

Additional observations from a re-analysis of the deposited data

How the results depend on the processing

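The 22 results were recomputed under 12 different alternatives, each result under only those that applied to it, giving 186 values. Of these, 145 stayed within 1.5 times the count or within the interval of the share, and 41 did not. In lists of equal length, HoxA had 8 peaks at D14 and 18 in sham, HoxB 0 and 14, and HoxC with HoxD 0 at D14. Members with a peak were then 16 in sham, 8 at D14 and 14 at D56. Among all 21887 protein-coding genes ranked by peak number, those without a peak in these lists began at rank 11501, 12401 and 11763. Groups 1 to 8 had 8 peaks at D14 and 32 in sham, and groups 9 to 13 had 2 at D14. In the same lists 12.5% of D14 Hox peaks had no sham overlap, 62.5% were found at D56, and 21.9% of sham Hox peaks were found at D14. Over all peaks of the equal lists these shares were 25.2%, 76.9% and 75%. With a fold of 5 or more, HoxA had 18 peaks at D14, HoxB 7 at D14 and 12 in sham, groups 1 to 8 had 26 at D14 and 32 in sham, groups 9 to 13 had 8 at D14, and 34.5% of D14 Hox peaks were found at D56. With gene bodies alone, HoxA had 18 peaks in sham, HoxB 2 at D56, HoxC with HoxD 3 at D14, groups 1 to 8 had 7 at D56, and groups 9 to 13 had 0 in sham, 1 at D14 and 0 at D56; members with a peak were 17 at D14 and 6 at D56. With 2.5 kb on either side, groups 9 to 13 had 1 in sham, 7 at D14 and 0 at D56. Assigned to the nearest member alone, they had the same 1, 7 and 0, and members with a peak at D56 were 8. Split in 3 classes, groups 4 to 8 alone had 35 at D14 and 28 in sham. Under a reciprocal overlap of 50%, 67.2% of D14 Hox peaks had no sham overlap, 32.8% of sham Hox peaks were found at D14 and 45.5% of D56 Hox peaks in sham. Merging peaks under 500 bp apart gave 79.5% for sham Hox peaks found at D14. The cause was not tested, beyond the fewer peaks or bases that an alternative holds by construction. A stricter q-value, thinned pileups and summits within 200 bp changed none of the results by more than these margins. No paired analysis was possible because each condition had 1 library, and for the same reason none could be left out.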
